A study of Mus musculus with 15 samples.

Results

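Plaat1 and Plaat3 encode 2 members of the phospholipase A/acyltransferase (PLAAT) family, and their transcripts were followed here in mouse hearts carrying 1 mutant lamin allele. Every probe set that the platform annotation assigns to 1 of these genes alone was taken, which gave 2 of 18194 named genes and 4 of the 45101 probe sets of the table, 2 per gene, and all 4 passed the filter on weak signals. The genes were chosen by the fold change of Plaat1 between the groups on these same arrays, with Plaat3 added as its relative, so their differences between the groups are given as a description without a test. Whole hearts of 15 male mice, all 10 weeks of age, were each measured on 1 Affymetrix array. One group held 8 control males and the other 7 males heterozygous for Lmna H222P, an amino acid substitution in lamins A and C, the filament proteins of the nuclear lamina. The labels give neither strain nor litter for either group, so a difference in these between the groups could not be told apart from genotype. The p-values take each mouse as independent and measure only the spread between these mice.

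PLAAT proteins are small enzymes anchored in membranes that use a cysteine to cut a fatty acid from a glycerophospholipid. They either release it, as a phospholipase, or pass it to another lipid, as an acyltransferase. When the acceptor is the amine of phosphatidylethanolamine, the product is the precursor of the N-acylethanolamines, a class of signalling lipids that includes anandamide. Plaat1 is known from heart, skeletal muscle, brain and testis and has been linked to the remodelling of cardiolipin, the phospholipid of the inner mitochondrial membrane. Plaat3, also called AdPLA, is best known from white fat, where it supplies fatty acid for prostaglandin synthesis and restrains lipolysis.

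Plaat1 signal was close to uniform in control hearts and both low and uneven in heterozygous hearts. In its brighter probe set, 1428991_at, the 8 controls read 689.7, 493.8, 521.0, 449.7, 477.2, 640.6, 485.8 and 489.0 units for control hearts 1 to 8. Heterozygous hearts 1 to 7 read 232.7, 184.4, 243.4, 29.3, 51.8, 69.3 and 38.9 units. All 7 heterozygous hearts therefore lay below the lowest control. Geometric means were 525.3 and 88.6 units, a ratio of 0.169, and mean log2 signals were 9.04 ± 0.22 (SD, n = 8) and 6.47 ± 1.28 (SD, n = 7). The log2 difference, heterozygous minus control, was -2.57 with an SE of 0.46 from the pooled SD. In RNA of whole hearts, fewer cells that express a gene and less RNA per cell cannot be told apart.

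**Figure D1:**
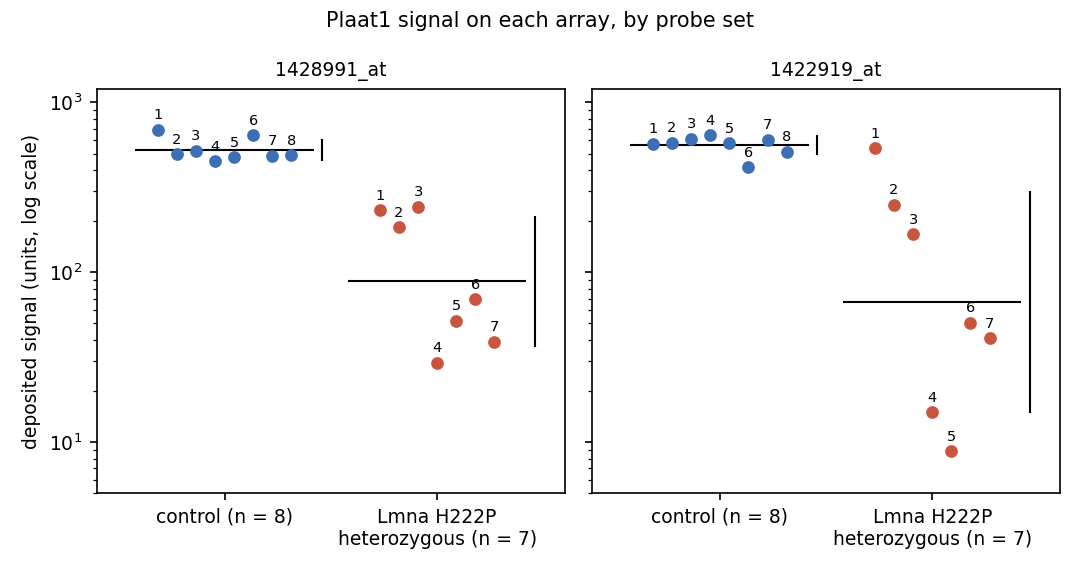
Signal of the 2 Plaat1 probe sets on each array (deposited units, log scale), with control hearts in blue and Lmna H222P heterozygous hearts in red, numbered as in the labels. Horizontal lines are geometric means and vertical bars 1 SD of the log2 signals on either side. Control hearts lie between 417 and 689.7 units in both panels, while heterozygous hearts 4 to 7 lie at or below 69.3 units.

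The heterozygous hearts did not form 1 level. In 1428991_at, 3 of them held 35.1% to 46.3% of the control geometric mean, and the other 4 held 5.58% to 13.2%. Between 69.3 and 184.4 units there was no array, a gap of 1.41 in a log2 range of 3.05. The labels give nothing that separates these 2 sets of hearts, so they were not tested against each other. The ranking of genes by likeness to Plaat1, given below, nevertheless draws mostly on this spread among heterozygous hearts.

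The other Plaat1 probe set, 1422919_at, gave a like order. Its 8 controls read 571.9, 579.8, 611.2, 642.7, 575.6, 417, 602.8 and 512.5 units. Heterozygous hearts 1 to 7 read 536.3, 250.5, 168.1, 15, 8.8, 50.4 and 41 units. Hearts 4 to 7 were again the lowest, at 1.57% to 9.002% of the control geometric mean, and hearts 2 and 3 were intermediate, at 44.7% and 30.0%. Heart 1 stood at 95.8% in this probe set, inside the control range, against 44.3% in the other. The groups therefore overlapped through 1 heterozygous heart. Mean log2 signals were 9.13 ± 0.20 (SD, n = 8) and 6.07 ± 2.17 (SD, n = 7), a log2 difference of -3.06 with an SE of 0.77. The ratio of the brighter to the other probe set ran from 0.700 to 1.54 in controls and from 0.434 to 5.89 in heterozygous hearts, the last in heart 5.

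**Figure D2:**
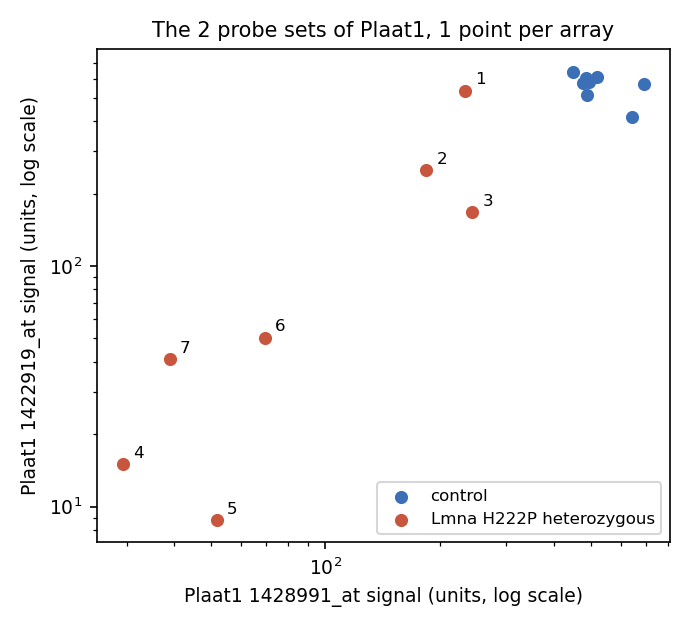
Signal of Plaat1 probe set 1422919_at against 1428991_at (deposited units, both axes log), with 1 point per array and the heterozygous hearts numbered. Controls sit together at the upper right, hearts 2 and 3 lie between them and hearts 4 to 7 at the lower left, and heart 1 lies below the controls in 1428991_at and inside their range in 1422919_at.

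Of the 4 probe sets, 1428991_at was among the 98 of 38870 called by limma at a Benjamini-Hochberg adjusted p under 0.05, and the other 3 were not. This amounted to 0.252% of all tested probe sets, 0.162% lower and 0.0900% higher in heterozygous hearts. The groups failed to overlap, in the lower direction, in 0.280% of tested probe sets. These counts use the contrast that led to the choice of Plaat1 and are printed only as its background. The split of calls depended on scaling, with 35 higher and 63 lower as deposited, 51 and 14 with arrays set to a common median, and 37 and 28 with quantile normalization. The median difference of all tested probe sets moved from -0.11 to 0.10 with the common median, and that of 1428991_at from -2.57 to -2.36. Among 15 fits that each left out 1 array, its difference stayed between -2.81 and -2.30. It was called in 6 of these fits, those without control heart 5 or 8 or heterozygous heart 1, 2, 3 or 7, and not in the other 9. The other Plaat1 probe set was called in 1 of them, without heterozygous heart 1. Plaat1 was chosen by this contrast, so these calls are a description and no test of it. The number of calls over the whole table ran from 17 to 150 in the same fits.

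The spread of Plaat1 differed between the groups more than that of a typical probe set. Its heterozygous SD of log2 signal was 5.84 times the control SD in 1428991_at and 11.1 times in 1422919_at, against a median ratio of 1.18 over all 38870 tested probe sets. Weak signals scatter more on these arrays. Probe sets within 0.5 log2 units of the heterozygous mean of 1428991_at had a median SD of 0.59 over heterozygous hearts, where Plaat1 had 1.28. For 1422919_at the same figures were 0.70 and 2.17. In control hearts the 2 probe sets had SDs of 0.22 and 0.20, and probe sets of like signal had a median SD of 0.25 around each. When signals under a log2 of 6 were set to 6, which removes differences between weak values, the differences were -2.26 and -2.21.

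Plaat3 signal showed no comparable split. In its brighter probe set, 1451611_at, controls ranged from 1413.4 to 2160.5 units with a median of 2011.5. Heterozygous hearts ranged from 1452.4 to 2633.9 units with a median of 1850.9. The ranges overlapped, and only heterozygous heart 1 exceeded every control. Mean log2 signals were 10.88 ± 0.22 (SD, n = 8) and 10.87 ± 0.29 (SD, n = 7), a log2 difference of -0.01 with an SE of 0.13 that became 0.19 with arrays set to a common median. In the other probe set, 1445597_s_at, controls ranged from 1396.4 to 2446.7 units with a median of 1641.4, and heterozygous hearts from 1276.4 to 2684.9 with a median of 2021.7. Its log2 difference was 0.20 with an SE of 0.17, which became 0.41 with arrays set to a common median and 0.06 without the 4 arrays on which the ratio of the 3' to the 5' control probe set of Actb, a measure of RNA integrity, exceeded 2, a choice made after seeing the data. Heterozygous heart 5 stood at 113.8% and heart 7 at 77.0% of the control geometric mean in 1451611_at. Both members' brighter probe sets varied by a like amount among controls, with the highest value 1.53 times the lowest in each.

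**Figure D3:**
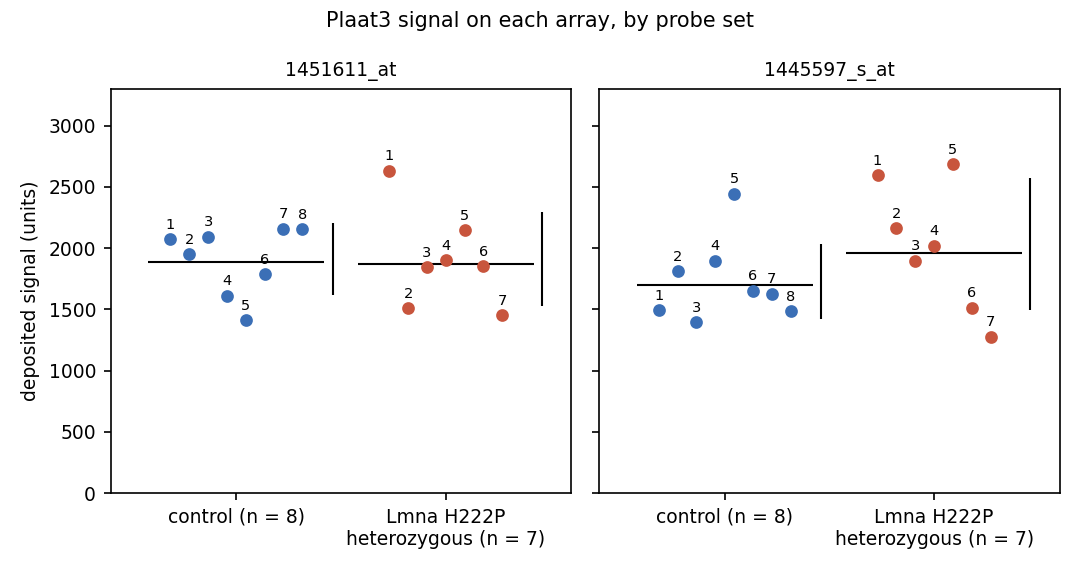
Signal of the 2 Plaat3 probe sets on each array (deposited units, linear scale from 0), with control hearts in blue and Lmna H222P heterozygous hearts in red, numbered as in the labels. Horizontal lines are geometric means and vertical bars 1 SD of the log2 signals on either side. All values lie between 1276.4 and 2684.9 units and the groups overlap in both panels.

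The 2 probe sets of Plaat3 did not order the arrays alike. Within the 8 controls their Pearson r was -0.90 (exact permutation p = 0.00419, adjusted p = 0.0629 over 15 relations), with Spearman's rho at -0.81 (exact permutation p = 0.0218, adjusted p = 0.327). Without the 2 controls farthest from the median, r was -0.52. Within the 7 heterozygous hearts r was 0.70 (exact permutation p = 0.0762, adjusted p = 0.381) and rho 0.71 (exact permutation p = 0.0881, adjusted p = 0.440), and r was 0.27 without the 2 farthest. Control heart 5 was the lowest control in 1451611_at, at 74.9% of the control geometric mean, and the highest in 1445597_s_at, at 143.8%.

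The third PLAAT gene on the array, Plaat5, whose product forms N-acylated phosphatidylethanolamine in testis, was measured by 1 weak probe set. Controls ranged from 13 to 99.4 units with a median of 48.95, and heterozygous hearts from 2.3 to 57.2 with a median of 35.6. The ranges overlapped. The log2 difference of -0.93 (limma SE 0.63, adjusted p = 0.517) did not pass, and it lay between -1.67 and -0.15 over the 25 of 26 settings that gave a value. The filter at a log2 of 6 removed the probe set.

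Genes that make, break down or sense N-acylethanolamines were taken next, since PLAAT enzymes supply their precursor. Of 13 tested genes 0 passed limma's adjusted threshold, and 4 had an unadjusted p under 0.05, 1 higher and 3 lower, where 14.6% of all tested probe sets did. The median difference was -0.16, beside -0.11 over all tested probe sets and -0.08 over all 16627 tested genes, 1 probe set each. Of the 13 genes 11 lay below 0, where 9727 of the 16627 genes did. The smallest p was that of Gdpd1, a lysophospholipase D that completes one route to N-acylethanolamines. Its geometric mean was 366.1 units in control against 198.7 in heterozygous hearts (log2 difference -0.88, limma SE 0.19, adjusted p = 0.0717). It passed under 4 of the 10 other settings, namely the filter at a log2 of 6, the floor at 6, a trended and robust prior and an offset of 16 units, and also without control heart 6. The other tested probe set of Gdpd1 lay at 0.39. Inpp5d, an inositol phosphatase that can act on phospho-anandamide, was called in a probe set other than its brightest, at -0.96 (limma adjusted p = 0.0336), while its brightest lay at -0.01. Napepld, the phospholipase D of the direct route, stood at 0.73 and the fatty acid amide hydrolase Faah at -0.63, neither passing (limma adjusted p = 0.290 and 0.379).

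Of 17 tested genes of cardiolipin synthesis and remodelling, 0 passed and 0 had an unadjusted p under 0.05 by limma. Their median difference was -0.02. The smallest p was that of Pnpla8, a mitochondrial and peroxisomal phospholipase, at 0.22 (limma SE 0.13, adjusted p = 0.459). Of 24 genes of other phospholipases A, 0 passed and 3 had an unadjusted p under 0.05, with a median of -0.06 and Pla2g4d, a cytosolic phospholipase gene, at -0.73 (limma adjusted p = 0.193). Of 17 acyltransferases that build or re-acylate glycerophospholipids, 0 passed and 1 had an unadjusted p under 0.05, with a median of -0.14. That 1 was Lpcat2, which re-acylates lysophosphatidylcholine, at -1.21 over a control geometric mean of 78.4 units (limma adjusted p = 0.274).

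PLAAT proteins can bind peroxisome biogenesis factors, and Plaat3 acts upstream of prostaglandins, so both groups were counted. Of 13 peroxisome biogenesis genes 0 passed in the brightest probe set and 1 had an unadjusted p under 0.05, with a median of -0.12. That 1 was Pex19, the import receptor for peroxisomal membrane proteins. It measured -0.59 there (limma adjusted p = 0.199), and another of its 3 probe sets was called at -1.10 (limma adjusted p = 0.0476). Of 11 prostaglandin genes 0 passed and 3 had an unadjusted p under 0.05, with a median of -0.01. The prostaglandin receptor gene Ptger4 had the smallest p, at 0.54 (limma adjusted p = 0.256). In all, 0 of the 91 genes of these 6 lists passed, and 12 of them, 13.2%, had an unadjusted p under 0.05 by limma. The share was 14.6% over all tested probe sets. The bases differ, since a list gene stands by 1 probe set and the 14.6% counts every tested probe set.

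**Figure D4:**
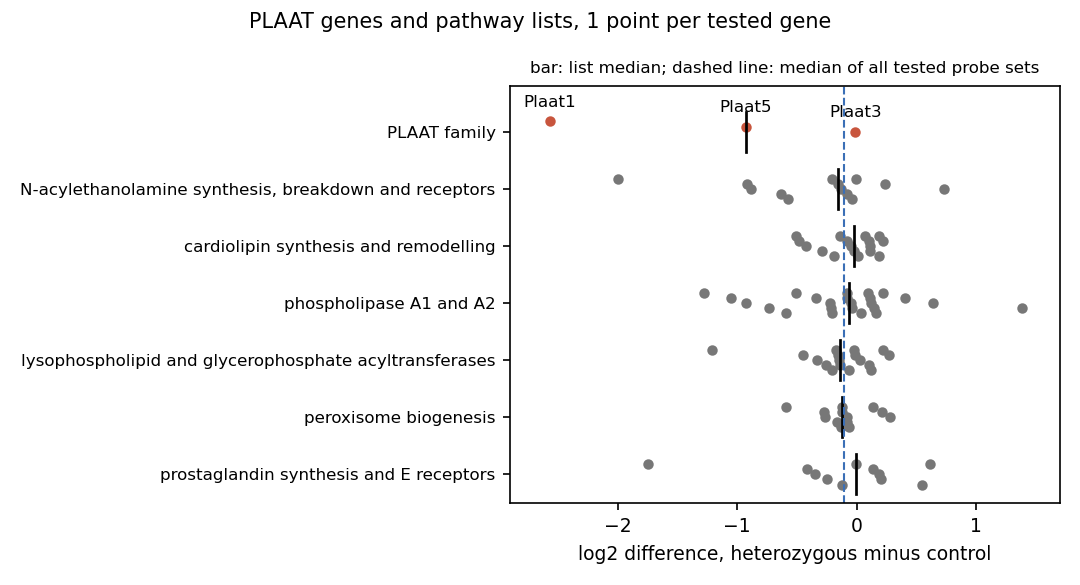
Log2 difference, heterozygous minus control, of each tested gene of the PLAAT family (red) and of 6 lists of related genes (grey), each gene by its probe set of highest mean. Plaat1 lies at -2.57 and Plaat3 at -0.01 on the deposited scale (0.19 after median centring). The medians of the 6 related lists lie between -0.16 and -0.01. The median was -0.11 over all tested probe sets and -0.08 over all tested genes, 1 probe set each.

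The position of the 2 genes was also examined, in the gene order of the RefSeq table of assembly GRCm38.p6. Genes without a probe set were passed over. Among the rest, Plaat1 lies on chromosome 16 between Mb21d2 and Atp13a5, and Plaat3 on chromosome 19 between Atl3 and Lgals12. Plaat5 follows Lgals12 in that order. The 3 nearest genes with a probe set on either side of Plaat1 had 15 tested probe sets, of which 0 passed limma's adjusted threshold and 1 had an unadjusted p under 0.05. Their differences lay between -0.78 and 1.06, and the smallest adjusted p was 0.325 (limma). That was a probe set of Atp13a4, a cation-transporting ATPase gene, at -0.76 with a control geometric mean of 98.3 units. The other tested probe set of Atp13a4 lay at 0.21 (limma adjusted p = 0.873), with a control geometric mean of 48.4 units. The gene beside Atp13a4 in this order, Atp13a5, stood at -0.78 (limma adjusted p = 0.397) with a control geometric mean of 49.6 units. Opa1, which encodes the fusion factor of the inner mitochondrial membrane, had 3 probe sets between -0.27 and -0.10. Around Plaat3, 5 of 6 neighbouring genes were tested in 9 probe sets, with 0 passing, 1 at an unadjusted p under 0.05 and a smallest adjusted p of 0.333 (limma), in Atl3.

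**Figure D5:**
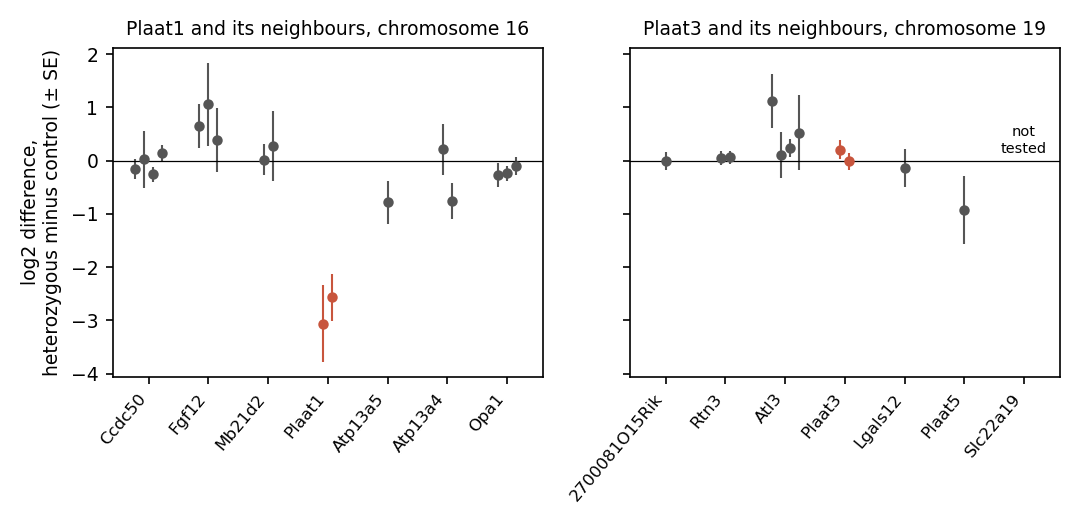
Log2 difference with its limma SE for every tested probe set of Plaat1 and Plaat3 (red) and of the 3 nearest genes on either side that have a probe set (grey), in chromosomal order and not to distance. Plaat1 lies at -3.06 and -2.57, and its neighbours lie between -0.78 and 1.06.

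Other genes were ranked by how closely they followed each member's brighter probe set over the 15 arrays after the group means were subtracted. For Plaat1, 96.7% of that variation came from the heterozygous hearts. Its ranking therefore mostly picks genes that differ among those hearts, across the gap described above, and is no independent result. Its own second probe set had a Pearson r of 0.86. The closest named genes were Ddr2, a collagen receptor kinase (r = 0.90), the transcription factor Zbtb20 (0.90), the macrophage lysozyme Lyz2 (0.90), the translation regulator Impact (0.90) and Srxn1, a sulfiredoxin (0.89). With the other Plaat1 probe set the same 5 genes had r from 0.75 to 0.82. The most opposed genes, a ranking added after the data were seen, were Pam (r = -0.93), an enzyme that amidates secreted peptides and 1 of the 13 atrial markers counted here, Cd99l2 (-0.90), Suclg2 (-0.89), Dhrs7c (-0.88) and Grk3 (-0.88). For Plaat3 the closest were Fkbp7, Ccdc82, Pnisr, Anp32a and Akr1a1, each with r = 0.87. With the other Plaat3 probe set, however, the same genes had r from -0.04 to 0.38, and that probe set itself had r = 0.11. These correlations were the extremes among 38870 probe sets on 15 arrays and carry no p.

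Markers of other cells of the heart were measured beside Plaat1. Of the 14 cardiomyocyte markers, which check the labelled tissue, none fell under 6571 units on any array, and 0 of the 14 passed limma's test between the groups, with 0 at an unadjusted p under 0.05. Of 13 atrial markers 3 passed, all higher, Sln, Myl7 and Myl4 (limma). By limma 7 had an unadjusted p under 0.05, 6 higher and 1 lower. In all 11 lay above 0 and 2 below, Kcna5 at -0.62 and Bmp10 at -0.81. The summed signal of the 13 ran from 8273 to 13052 units in control and from 12789 to 43498 in heterozygous hearts. Its brightest marker was Nppa, with geometric means of 6947 and 12713 units, so the sum leans on that gene. For heterozygous hearts 1 to 7 the atrial sums were 27841, 26658, 22628, 25510, 43498, 19548 and 12789 units. Plaat1 in 1428991_at read 232.7, 184.4, 243.4, 29.3, 51.8, 69.3 and 38.9 units in the same order. The relation of the 2 within these hearts was not tested. Of 7 blood markers 2 passed, Ppbp and Alas2, both lower (limma). By limma 4 had an unadjusted p under 0.05, all lower, and all 7 lay below 0. Their sums were 3451 to 4386 units in control and 1798 to 3410 in heterozygous hearts. Of 10 fibroblast markers 0 passed and 5 had an unadjusted p under 0.05 by limma, all higher. All 10 lay above 0, where 6900 of the 16627 tested genes did. Their sums were 24393 to 33008 units in control and 33283 to 43296 in heterozygous hearts. Macrophage markers, 0 of 9 passing and 1 at an unadjusted p under 0.05, summed to 7475 to 10304 units in control and 6652 to 16535 in heterozygous hearts. None of these markers was at 0 in any array. Of 9 endothelial markers 0 passed and 1 had an unadjusted p under 0.05 by limma, and of 11 skeletal muscle markers 0 passed and 2 did. Beside these counts, 0.252% of all tested probe sets passed and 14.6% had an unadjusted p under 0.05 by limma. Median differences were 0.44 for the atrial, -0.75 for the blood, 0.31 for the fibroblast and 0.26 for the macrophage markers. The median was -0.11 over all tested probe sets and -0.08 over all tested genes, 1 probe set each. The part of atrial, blood, fibroblast and macrophage content in the Plaat1 difference was not tested.

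Relations within a group do not depend on the contrast that chose the members. For Plaat1 they could be tested in controls only, since the heterozygous values fell into sets of 3 and 4 arrays with a gap between them. Of 15 relations computed, 0 passed after adjustment and 2 had an unadjusted exact permutation p under 0.05 for Pearson's r. Among the 8 controls the 2 Plaat1 probe sets had a Pearson r of -0.55 and a Spearman rho of -0.52 (exact permutation p = 0.145 and 0.197, adjusted p = 0.416 and 0.561). The brighter one had r = 0.54 with the atrial marker mean, -0.23 with the cardiomyocyte marker mean, -0.09 with the blood marker mean, 0.35 with the array median and 0.27 with Plaat3, with exact permutation p from 0.167 to 0.818 and adjusted p from 0.416 to 0.907. Spearman's rho for these lay between -0.31 and 0.45, with exact permutation p from 0.267 to 0.935 and adjusted p from 0.561 to 0.935. The strongest was with the ratio of the 3' to the 5' control probe set of Actb, a measure outside the first plan of relations. There r was 0.89 and rho 0.67 (exact permutation p = 0.0131 and 0.0831, adjusted p = 0.0980 and 0.440), and r was 0.70 without the 2 controls farthest from the median. That ratio exceeded 2 in control heart 6 and heterozygous hearts 2, 3 and 5. Without these 4 arrays, a choice made after seeing the data, the difference of 1428991_at was -2.96. For Plaat3, r with the adipocyte marker mean was -0.50 in controls and -0.60 in heterozygous hearts (exact permutation p = 0.216 and 0.151, adjusted p = 0.463 and 0.416), and it turned to 0.42 in the latter without 2 arrays. Spearman's rho was -0.57 and -0.36 (exact permutation p = 0.151 and 0.444, adjusted p = 0.561 and 0.630). Of 12 adipocyte markers 0 passed limma's test and 1, Adipoq, had an unadjusted p under 0.05. Adipoq had geometric means of 23.6 units in control and 85.5 in heterozygous hearts (log2 difference 1.86, limma adjusted p = 0.233). Of the 12 markers 8 lay above 0 and 4 below, with a median difference of 0.09. Their summed signal ran from 17399 to 24998 units in control and from 17484 to 31245 in heterozygous hearts. That sum mostly followed Fabp4, with geometric means of 14462 and 15604 units, and weak markers such as Adipoq hardly entered it.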

How the data were processed

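RNA of whole hearts, purified on RNeasy columns, was labelled with biotin for Affymetrix arrays, per the labels' protocols. The authors deposited 1 signal intensity per probe set and array. The submitters' processing notes name GCRMA, with no version. The values are linear, from 0.1 to 80754.9, and their mean with 2% trimmed at each end was 249.9 on each array, a sign of scaling to one target, so how they were summarised stays unknown. Array medians ran from 56.7 to 94.2 units. The number of arrays limits the precision. Scan dates were not used here.

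Signals were taken to log2 with no pseudocount. The tests omitted 64 control probe sets and any probe set that did not exceed a log2 of 4 on 7 or more of the 15 arrays, which left 38870. The comparison used limma 3.58.1 (R 4.3.3), two-sided, with group as its sole term and Benjamini-Hochberg adjustment over all tested probe sets, and the fit was tested on simulated data. Fold values are ratios of geometric means. Of the probe sets, 34958 had 1 gene symbol, 932 several and 9211 none. A list gene stands by its tested probe set of highest mean. The members, lists and tests were chosen with earlier results of these data known. Named genes were all probe sets of Plaat1, Plaat3 and Plaat5, the list genes past the threshold or else the 1 with the smallest p, the 5 most alike genes and the 3 nearest genes with a probe set per side. Inpp5d, Napepld, Faah, Opa1, Atp13a5, Gdpd3, Adipoq, Fabp4, Nppa, Kcna5 and Bmp10 were named after their values were seen. Of the lists, 6 hold related pathway genes and 8 hold cell type markers. Within-group correlations used exact two-sided permutation tests under Python 3.11.15. The replicate numbers were checked for pairing: deviations of same-numbered arrays correlated between -0.06 and 0.06, so they do not pair the samples. Figures were drawn with matplotlib 3.10.9. Protein sequences were not used here.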

Additional observations from a re-analysis of the deposited data

Results flagged for a closer look

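Of 30 group values examined for a single array far from the others, 3 stood out, and chance alone gives about 1 in 20. Heterozygous heart 4 had a log2 signal of 1.20 for Plaat5 (2.3 units), where the next heterozygous heart had 4.38 (20.8 units). It also had the lowest value of the Plaat1 probe set 1428991_at. Control heart 6 had the highest control mean of the atrial markers, at a log2 signal of 8.14 against 7.53 for the next. Its Plaat1 signals were 640.6 and 417 units, the second the lowest control value of 1422919_at. Heterozygous heart 2 had the lowest heterozygous mean of the fibroblast markers, at 10.39 against 11.02 for the next. No value of Plaat1 or Plaat3 itself stood apart from its group in this way.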

How the results depend on the processing

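The Plaat1 difference in 1428991_at kept its direction under the 25 alternatives fitted, from -2.96 to -2.26. It moved by less than 1 pooled SD of log2 signal (0.89), which the wide heterozygous spread enlarges. Its call held in 6 of the 15 fits that left out 1 array and in 9 of the 10 others. The difference of Plaat3 in 1451611_at lay between -0.09 and 0.19, with either sign, and moved by less than its pooled SD (0.26). The other probe sets stood at -3.06 and 0.20. The count of called probe sets over the whole table moved more. It was 98 on the deposited scale, 192 with the filter at a log2 of 6, 65 with median centring, 65 with quantile normalization, 287 with a floor at a log2 signal of 6 199 with an offset of 16 units, an alternative added for the counts after seeing the data, and 312 with a trended and robust prior. Leaving out each array in turn gave 17 to 150. With the replicate number as a block, which the pairing check does not back, 1 probe set passed and the Plaat1 difference was -2.58. Same-numbered arrays correlated best with their own number in 2 of 7 cases. Of the pathway genes, 1 in place of 0 passed with the filter at 6, the floor, the trended prior and the offset of 16 units, 0 to 1 when each array was left out, and 2 when any probe set of a gene could count. No within-group correlation passed under median centring or without the 2 farthest arrays. The causes were not tested. Signals under about a log2 of 6 scatter widely, which limits what the low Plaat1 values resolve.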

Other observations

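Pam, the gene most opposed to Plaat1, is 1 of the 13 atrial markers and enters their sums. Its 1 tested probe set read 133.3, 277.4, 165.9, 6479.2, 1485.5, 2359.6 and 4092.8 units in heterozygous hearts 1 to 7, against 129.7 to 442.2 in controls. Over all 15 arrays its groups overlapped and its difference of 2.10 did not pass (limma adjusted p = 0.249). Pam was picked out of all tested probe sets for this likeness.

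Gdpd3, a lysophospholipase D gene of the N-acylethanolamine list, also had a tight control range, 1069.3 to 1583.4 units, and a wide heterozygous one. Heterozygous hearts 4 and 7 read 33.9 and 6.8 units, and the other 5 between 860.9 and 1385.9, of which hearts 5 and 6, at 860.9 and 1064.5, lay under the lowest control. Its SD of log2 signal was 0.19 in control and 3.12 in heterozygous hearts, and its difference of -1.998 did not pass (limma adjusted p = 0.386).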
